A study of Arabidopsis thaliana with 24 samples.

Results

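EXO and the DUF1005 genes AT1G50040 and AT3G19680 are 3 Arabidopsis genes whose transcripts were more abundant in plants that overexpress a flavonoid regulator than in wild-type plants. EXO is AT4G08950, and each gene is read by 1 probe set, 3 of the 22810 in the table. The members were chosen by measured values: their signals were higher in MYB12OX, pap1-D, WOX1-1 and WOX1-2 than in Col-0, so every difference from Col-0 is given below as a description without a test. The rule has no threshold of size. The regulator lines were taken to be those 4, without the crosses to tt4. Tests are given for the differences that leave Col-0 out. Of these, the comparisons with MYB12OX, pap1-D, WOX1-1 or WOX1-2 still use arrays on which the genes were chosen to be high, so their p-values are not independent of the choice, which favours lower values in a cross than in its parent line. The differences among tt4 and its crosses use none of those arrays. Their SE and p-values still do, since the spread is estimated from all arrays, Col-0 and the regulator lines included.

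EXO, or EXORDIUM, encodes a protein of the cell wall space and is known as a gene that brassinosteroids induce. Brassinosteroids are plant steroid hormones that promote cell expansion, and EXO is required for normal leaf and root growth in Arabidopsis. AT1G50040 and AT3G19680 encode proteins with a DUF1005 domain, a stretch conserved among plant proteins whose function is unknown. MYB12 and PAP1 are MYB transcription factors that switch on flavonol and anthocyanin genes, and both pigment classes derive from the product of chalcone synthase (CHS).

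RNA of aerial tissue, taken from plants at 3 weeks, was measured on 24 Affymetrix ATH1 arrays, 3 for each of 8 genotypes. WOX1-1 and WOX1-2 are homozygous lines obtained by crossing MYB12OX and pap1-D, so both regulators are overexpressed in each. The line pap1-D overexpresses MYB75, also named PAP1, and MYB12OX overexpresses MYB12, each homozygous in the Col-0 background. The crosses pap1-D/tt4 and MYB12OX/tt4 are homozygous and carry the same overexpressed regulators without a working CHS. The mutant tt4 lacks CHS in the Col-0 background and carries no overexpressed regulator, and Col-0 is the wild type. The labels do not name the promoters or enhancers that drive the regulators, nor the number of transformants behind each line. All plants shared 1 growth regime, on agar with 1% sucrose at 22 °C in long days (16 h light, 8 h dark). It included 2 days in the cold and dark. The shared growth text also describes a drought experiment, and no label ties an array to it. Nothing in the labels says that the 3 arrays of a line represent separate plants or cultures. The p-values therefore rest on array-to-array spread, part or all of which may be technical.

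Levels are linear MAS5 signals as deposited, 1 value per probe set, on arrays that had been scaled to a common mean. A difference is given on the scale of log2(signal + 42.6) with its standard error (SE) from 1 limma fit over all 24 arrays. An adjusted p under 0.05 counted as passing, with Benjamini-Hochberg adjustment over the 14935 probe sets tested. All 3 members passed the filter on low signals. Levels of different probe sets were not set against each other. Whether the arrays of groups overlap is given as a description. An exact test of 3 arrays against 3 cannot give a p under 0.1. The share of all probe sets with the same separation is given only where stated.

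As a check of the tissue, RCA, the activase of Rubisco in leaves, read between 18031 and 27159 on all 24 arrays. The peroxidase gene AT4G26010 of the root list read between 1.76 and 62.2, and AT5G07230 of the flower list between 4.23 and 183. These were the only genes with a usable probe set name among 8 leaf, 7 root and 7 flower markers, and none of 4 seed markers had one. RCA itself was 0.23 lower on the log2 scale in each of the tt4 crosses than in its parent line with CHS (both passed in limma). Without the 4 arrays named next, neither passed in limma. The differences were then -0.27 in MYB12OX/tt4 (adjusted p = 0.0594) and -0.26 in pap1-D/tt4 (adjusted p = 0.0637), with an SE of 0.090 in place of 0.078. Among 15 touch and fast stress genes, the 4 that could be tested were STZ, CML38, AT5G52050 and AT2G27080. Their summed signal was 13524 on pap1-D replicate 1, 9097 on WOX1-1 replicate 1, 3922 on MYB12OX replicate 1 and 3671 on WOX1-2 replicate 1. It lay between 946 and 2066 on the other 20 arrays. Those 4 arrays stand apart, and most of the differences, calls and correlations that use them are also given without them. All 4 belong to regulator lines with CHS. Leaving them out thus takes arrays from the parent lines and none from the tt4 crosses, and it was decided after seeing the data.

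By their means, the 3 transcripts were highest in the plants with an overexpressed regulator and working CHS. EXO averaged 4579 ± 458 in WOX1-1, 2876 ± 491 in WOX1-2, 3558 ± 900.0 in pap1-D and 2748 ± 735 in MYB12OX, against 1136 ± 436 in Col-0 (SD, n = 3 each). In the plants without CHS it averaged 1883 ± 138 in pap1-D/tt4, 1952.5 ± 188 in MYB12OX/tt4 and 1559 ± 70.5 in tt4 (SD, n = 3 each). The ratio of the mean to that of Col-0 was 4.03 in WOX1-1, 2.53 in WOX1-2, 3.13 in pap1-D and 2.42 in MYB12OX. It was 1.66 in pap1-D/tt4, 1.72 in MYB12OX/tt4 and 1.37 in tt4. In whole aerial parts, a change in the share of the cells that express a gene and a change in its RNA per cell cannot be told apart.

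**Figure D1:**
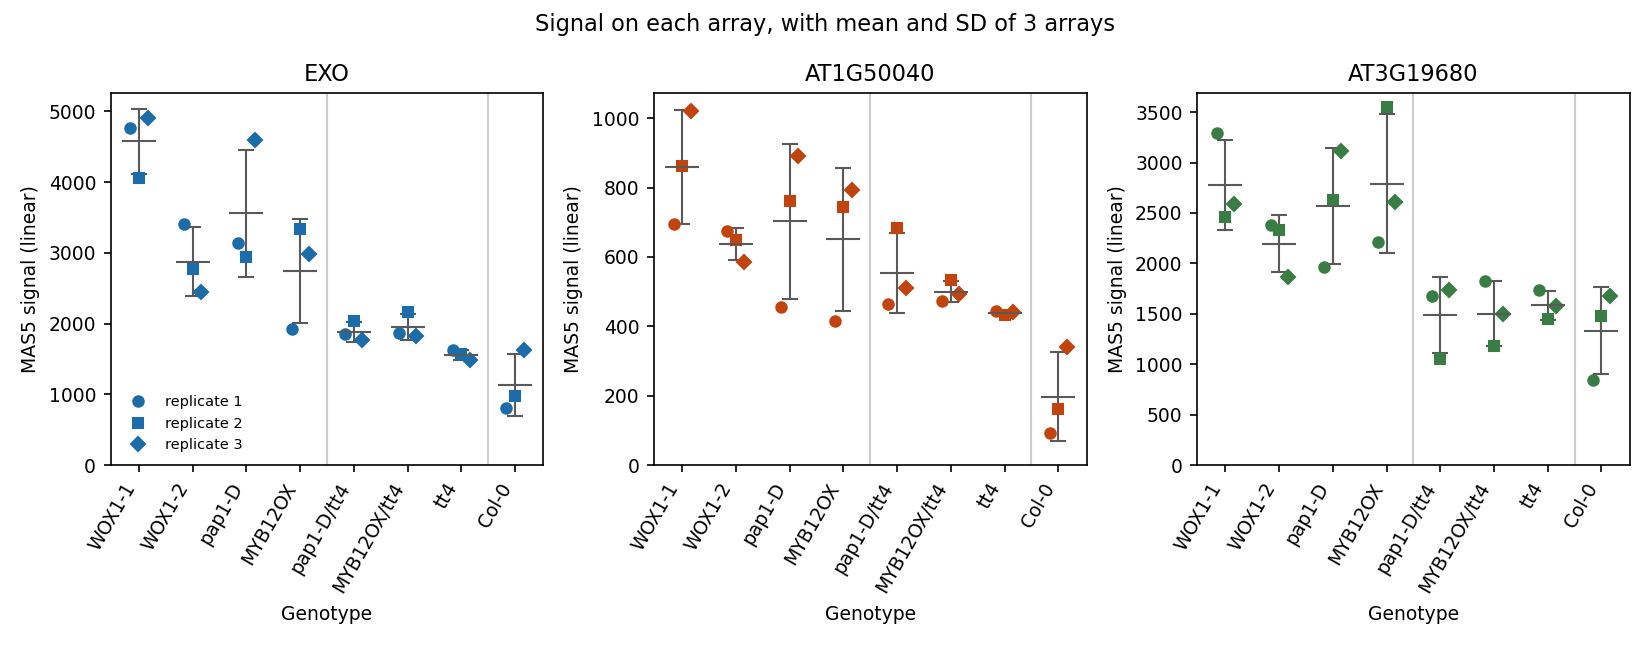
MAS5 signal (linear axis from 0) of EXO, AT1G50040 and AT3G19680 on each of the 24 arrays, by genotype, with circles, squares and diamonds for replicates 1, 2 and 3 and a line and bars for the mean and SD of 3 arrays. Grey lines separate the 4 regulator lines with CHS, the 3 genotypes with tt4, and Col-0, and every array of the first 4 genotypes lies above the 3 arrays of Col-0 in each panel.

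Array by array, EXO read 4766, 4057 and 4913 in WOX1-1, 3411, 2771 and 2446 in WOX1-2, 3136, 2948 and 4592 in pap1-D and 1925, 3337 and 2983 in MYB12OX. It read 1852, 2033 and 1763 in pap1-D/tt4, 1872, 2168 and 1818 in MYB12OX/tt4, 1622, 1574 and 1483 in tt4, and 806, 972 and 1631 in Col-0. The 3 arrays of WOX1-1 are the highest group as a mean, although pap1-D replicate 3 lies within their range. In the order of mean levels, from WOX1-1 over pap1-D, WOX1-2, MYB12OX, MYB12OX/tt4, pap1-D/tt4 and tt4 to Col-0, the arrays of neighbours overlapped at every step except between pap1-D/tt4 and tt4. Col-0 replicate 3 read above the 3 arrays of tt4, so the wild type and tt4 overlapped for EXO. Of the 12 arrays with a regulator and CHS, 11 lay above the highest of the 9 arrays with tt4, and the exception was MYB12OX replicate 1. Those 12 arrays entered the choice of the genes, and the share of all probe sets with such a split was not counted.

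The signal of AT1G50040, a DUF1005 gene, was lowest in the wild type, where the SD was 64.6% of the mean. It read 694, 862 and 1022 in WOX1-1, 676, 649 and 586 in WOX1-2, 456, 760.0 and 891 in pap1-D and 415, 745 and 794 in MYB12OX. It read 466, 684 and 512 in pap1-D/tt4, 473, 533 and 493 in MYB12OX/tt4, 443, 432 and 442 in tt4, and 92.3, 161 and 339 in Col-0. All 9 arrays with tt4 thus lay above all 3 of Col-0, unlike for EXO and AT3G19680. The share of all probe sets with that split was not counted. The arrays with a regulator and CHS were only partly above the arrays with tt4, 7 of 12 being higher than the highest of the 9. Those 12 arrays entered the choice of the genes here too, and the share of probe sets with such a split was not counted. The means ran from 859 ± 164 in WOX1-1 over pap1-D, MYB12OX, WOX1-2, pap1-D/tt4, MYB12OX/tt4 and tt4 (439 ± 6.03) to 198 ± 128 in Col-0 (SD, n = 3 each). The arrays of neighbours in that order overlapped in all but the last steps, from MYB12OX/tt4 to tt4 and from tt4 to Col-0.

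AT3G19680, the other DUF1005 gene, divided the regulator lines with CHS from the genotypes with tt4. It read 3290, 2460 and 2589 in WOX1-1, 2381, 2336 and 1868 in WOX1-2, 1961, 2630 and 3113 in pap1-D and 2209, 3550 and 2611 in MYB12OX. It read 1672, 1050 and 1740 in pap1-D/tt4, 1822, 1183 and 1499 in MYB12OX/tt4, 1731, 1448 and 1573 in tt4, and 848, 1479 and 1676 in Col-0. All 12 arrays with a regulator and CHS lay above all 9 arrays with tt4, a split shown by 0.924% of the probe sets tested, though those 12 arrays entered the choice of the genes. They also lay above the 3 arrays of Col-0, as the rule for choosing the genes asks, and 0.1% of the probe sets tested showed both. Among the means, MYB12OX (2790 ± 688), WOX1-1 (2780 ± 446), pap1-D (2568 ± 578) and WOX1-2 (2195 ± 284) followed each other with overlapping arrays. The next step, from WOX1-2 to tt4 (1584 ± 142), had no overlap (SD, n = 3 each). MYB12OX/tt4 (1502 ± 320), pap1-D/tt4 (1487 ± 381) and Col-0 (1335 ± 432) completed the order with overlapping arrays.

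On the log2 scale the differences of EXO from Col-0 were 2.03 ± 0.20 (SE) in WOX1-1, 1.36 in WOX1-2, 1.64 in pap1-D and 1.27 in MYB12OX, each with the same SE. Those of AT1G50040 were 2.03 ± 0.27, 1.63, 1.72 and 1.62 in the same lines, and those of AT3G19680 1.08 ± 0.23, 0.75, 0.95 and 1.07. In pap1-D/tt4, MYB12OX/tt4 and tt4 the differences were 0.77, 0.82 and 0.50 for EXO, 1.43, 1.31 and 1.14 for AT1G50040, and 0.17, 0.20 and 0.29 for AT3G19680. In tt4 alone, the distance from Col-0 was over 1 log2 unit for AT1G50040 and under 2 SE for AT3G19680. All 7 differences of a gene share the 3 arrays of Col-0. The selection also used these contrasts, in which 0.509% of the probe sets tested were higher at an adjusted p under 0.05 in all 4 regulator lines. Having all 12 of their arrays above the 3 of Col-0 was found for 3.62%, and the 3 members are among both.

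Col-0 replicate 1 was the lowest of its group for all 3 genes. Without it, the differences in the 4 regulator lines lay between 1.06 and 1.82 for EXO, between 1.27 and 1.68 for AT1G50040 and between 0.46 and 0.79 for AT3G19680. For AT3G19680 the differences then came to -0.11 in pap1-D/tt4, -0.088 in MYB12OX/tt4 and 0.0047 in tt4. Without the 4 arrays that were high in the fast stress genes, the EXO differences were 2.00 in WOX1-1, 1.23 in WOX1-2, 1.72 in pap1-D and 1.50 in MYB12OX. Those of AT1G50040 were 2.16, 1.59, 1.98 and 1.89, and those of AT3G19680 0.95, 0.69, 1.13 and 1.22.

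The genotypes stand in the listing in the order Col-0, MYB12OX, pap1-D, WOX1-1, WOX1-2, MYB12OX/tt4, pap1-D/tt4 and tt4, so listing order and genotype move together. Within genotypes, AT1G50040 was higher on the array numbered 3 than on the array numbered 1 in 6 of 8 genotypes, and EXO and AT3G19680 each in 4 of 8. With the place in the listing as a linear covariate, the differences from Col-0 in MYB12OX, next to Col-0 in the listing, were 0.99 ± 0.27 for EXO, 0.90 ± 0.30 for AT1G50040 and 0.92 ± 0.31 for AT3G19680. In WOX1-1 they were 1.20 ± 0.57, -0.11 ± 0.65 and 0.63 ± 0.67. In that fit the differences from Col-0 of all 3 genes were below 0 in pap1-D/tt4, MYB12OX/tt4 and tt4, and that of AT1G50040 also in WOX1-1 and WOX1-2. The slope comes only from differences between arrays of 1 genotype, so its error grows with the distance in the listing. Within a genotype the place runs with the replicate number, so the slope cannot be told apart from a difference between replicate numbers. No label says that the listing is the order in which arrays were run.

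**Figure D2:**
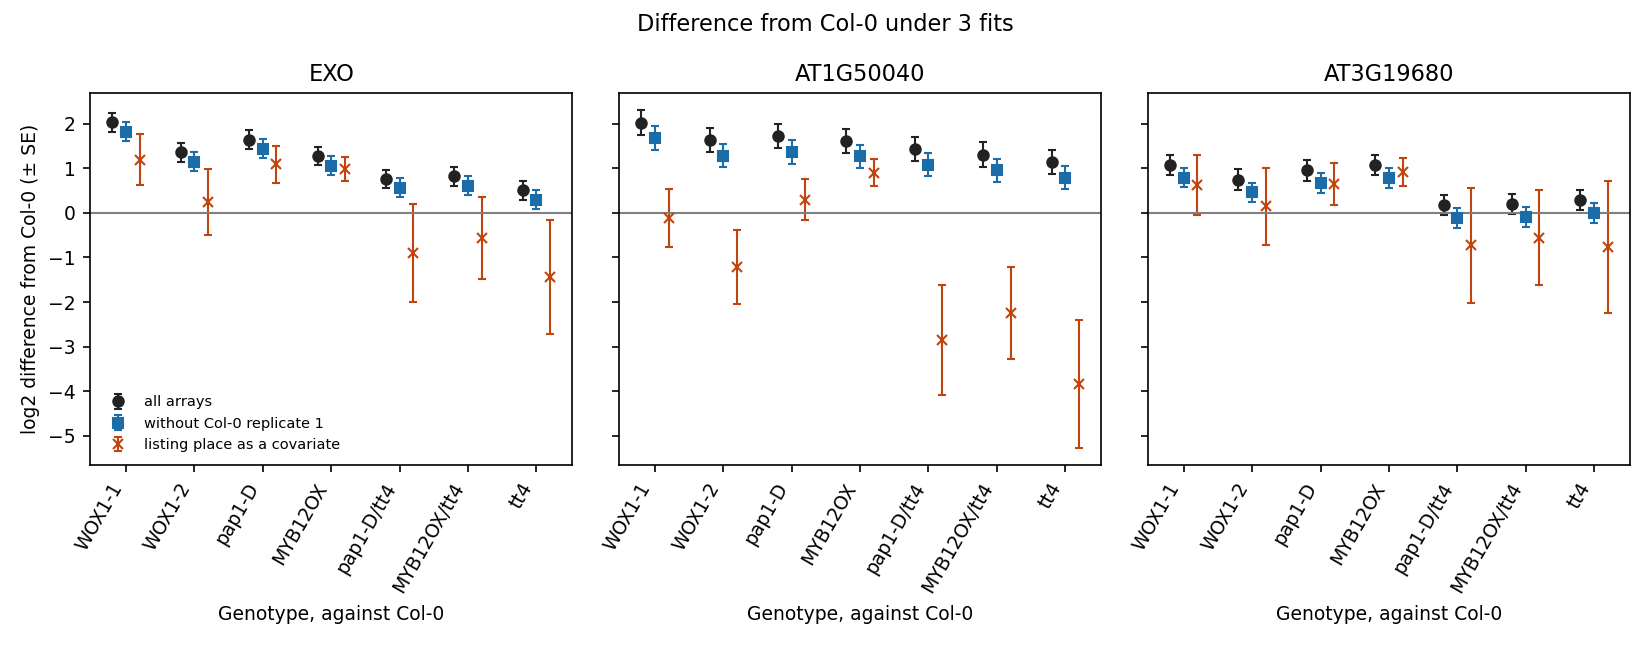
Difference from Col-0 of log2(signal + 42.6), with SE, for the 3 genes in 7 genotypes, from the fit on all arrays (circles), without Col-0 replicate 1 (squares) and with listing place as a covariate (crosses). The squares lie below the circles throughout, and the crosses of AT1G50040 lie between 0.90 in MYB12OX and -3.85 in tt4.

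The crosses with tt4 ask whether a regulator is accompanied by high EXO and DUF1005 transcripts when no flavonoids can be made. Between pap1-D/tt4 and pap1-D, 2 of the 3 genes were lower in the cross and passed. The arrays of pap1-D are among those on which the genes were chosen to be high, so a lower value in the cross is in part built in by the choice, to an extent that was not tested. EXO was 1.84-fold lower, a difference of -0.88 ± 0.20 on the log2 scale (limma adjusted p = 0.00417), with means of 1883 in pap1-D/tt4 and 3558 in pap1-D. All 3 arrays of pap1-D/tt4 lay below all 3 of pap1-D. AT3G19680 was 1.72-fold lower, a difference of -0.78 ± 0.23 (limma adjusted p = 0.0196), with means of 1487 in pap1-D/tt4 and 2568 in pap1-D and no overlap of the arrays. AT1G50040 averaged 554 in pap1-D/tt4 and 702 in pap1-D, with overlapping arrays and a difference of -0.29 ± 0.27 (95% interval -0.86 to 0.28, limma adjusted p = 0.506). The call of EXO held with each array left out in turn. That of AT3G19680 was lost without pap1-D replicate 2 (adjusted p = 0.0548), pap1-D replicate 3 (adjusted p = 0.0908) or pap1-D/tt4 replicate 2 (adjusted p = 0.129). Without the 4 arrays high in fast stress genes the differences were -0.95 for EXO (adjusted p = 0.00365), -0.96 for AT3G19680 (adjusted p = 0.0112) and -0.56 for AT1G50040 (adjusted p = 0.171). In this comparison 18.9% of all probe sets tested passed, and 8.84% were lower in pap1-D/tt4. The share whose arrays did not overlap was not counted, so the lack of overlap is a description only.

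Between MYB12OX/tt4 and MYB12OX, AT3G19680 was lower in the cross and passed. The choice of the genes used the arrays of MYB12OX in the same way. Its mean was 1502 in MYB12OX/tt4 and 2790 in MYB12OX, 1.83-fold lower, and the arrays did not overlap. The difference was -0.87 ± 0.23 (limma adjusted p = 0.0106). It no longer passed without MYB12OX replicate 2 (-0.68, adjusted p = 0.0699) or without MYB12OX/tt4 replicate 2 (-0.71, adjusted p = 0.0695). EXO averaged 1952.5 in MYB12OX/tt4 and 2748 in MYB12OX, and 2 of the 3 arrays of MYB12OX/tt4 lay below all arrays of MYB12OX. Its difference was -0.45 ± 0.20 (95% interval -0.87 to -0.028, limma adjusted p = 0.139). Without MYB12OX replicate 1, which was high in the fast stress genes and low in EXO, it was -0.68 (adjusted p = 0.0338). Without all 4 arrays high in those genes, EXO was at -0.68 (adjusted p = 0.0293), AT3G19680 at -1.02 (adjusted p = 0.00734) and AT1G50040 at -0.58 (adjusted p = 0.147). This takes an array from MYB12OX, the lowest of that line for EXO, and none from MYB12OX/tt4. It was decided after seeing the data, so the EXO call is not independent of it. AT1G50040 averaged 499 in MYB12OX/tt4 and 651 in MYB12OX, with a difference of -0.31 ± 0.27 (95% interval -0.87 to 0.26, limma adjusted p = 0.486). Among all probe sets tested, 17.4% passed and 8.23% were lower in MYB12OX/tt4. How many of them had arrays without overlap was not counted. Both CHS comparisons together had 5.54% of the probe sets lower, AT3G19680 among them.

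With the place in the listing as a covariate, the 3 calls above were lost while the differences were larger in size and less certain. That fit extends a slope over replicate numbers within genotypes to the distance between genotypes. It cannot show whether a trend along the listing exists. EXO was then at -1.99 ± 0.75 in pap1-D/tt4 against pap1-D (adjusted p = 0.206). AT3G19680 was at -1.38 ± 0.87 in the same comparison (adjusted p = 0.5) and at -1.47 ± 0.87 in MYB12OX/tt4 against MYB12OX (adjusted p = 0.47). In that fit 136 and 45 of all probe sets passed in the pap1-D and the MYB12OX comparison.

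Whether the loss of CHS was accompanied by unequal changes under the 2 regulators was tested as a difference of differences, pap1-D minus MYB12OX. It came to -0.43 ± 0.29 for EXO (95% interval -1.03 to 0.17, limma adjusted p = 0.936), 0.019 ± 0.39 for AT1G50040 (-0.78 to 0.82, adjusted p = 0.999) and 0.089 ± 0.32 for AT3G19680 (-0.58 to 0.76, adjusted p = 0.992). None passed, and 0.0067% of all probe sets did, a single one. It was -0.27 for EXO, 0.029 for AT1G50040 and 0.063 for AT3G19680 without the 4 arrays high in fast stress genes (adjusted p = 0.999 for each). So the passing of EXO under pap1-D and not under MYB12OX is not shown to be a difference between the regulators. The intervals are wide enough to hold a change of 1.5-fold in at least 1 direction for each gene.

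**Figure D3:**
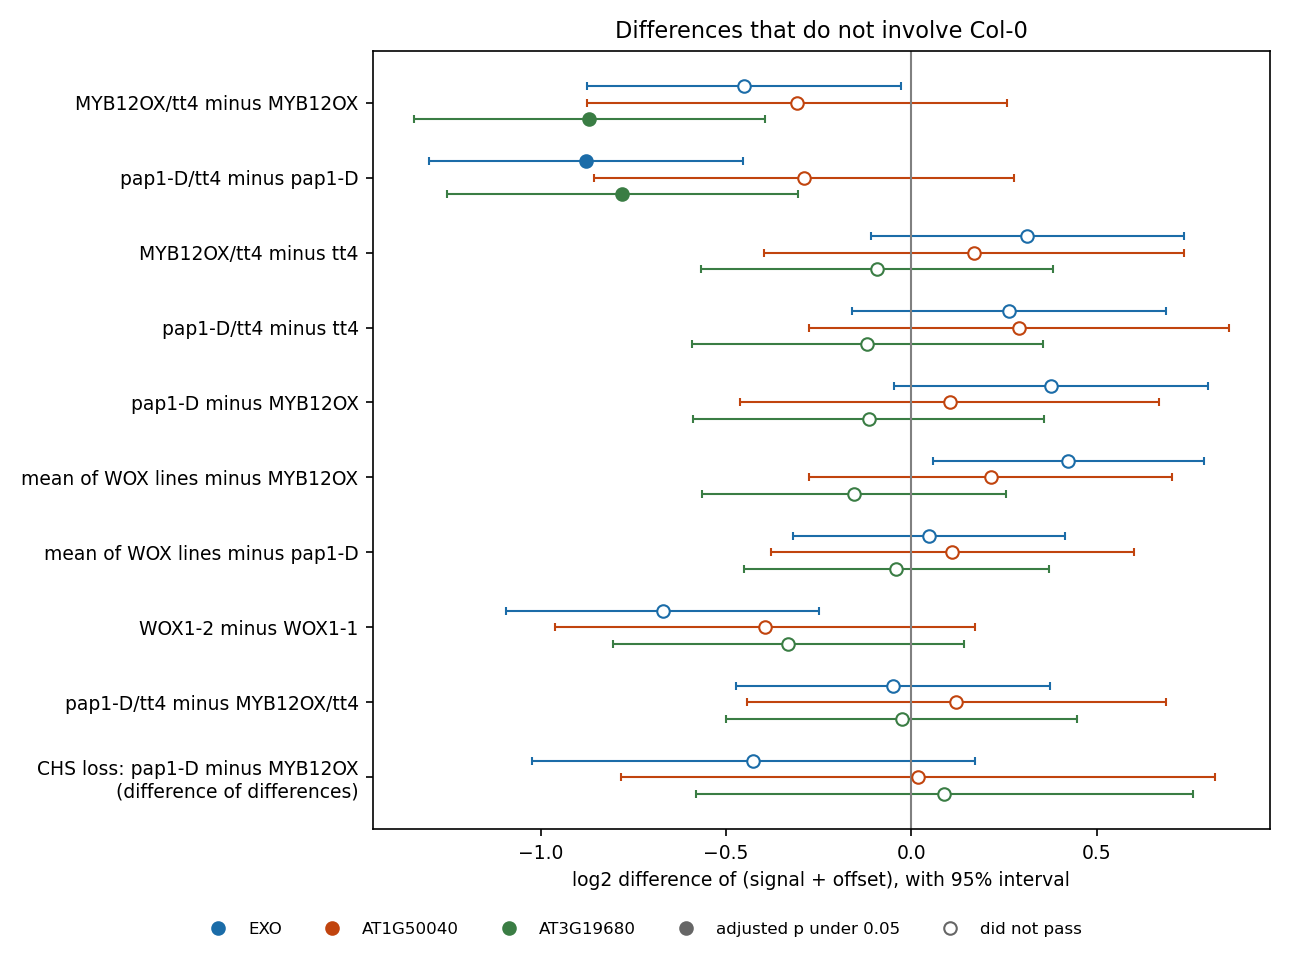
Differences of log2(signal + 42.6) with 95% intervals for EXO (blue), AT1G50040 (orange) and AT3G19680 (green) in the 10 contrasts that leave out Col-0; filled circles had an adjusted p under 0.05 in limma. The filled circles are AT3G19680 in both comparisons of a tt4 cross with its parent line, at -0.87 and -0.78, and EXO in that of pap1-D/tt4 with pap1-D, at -0.88; in all 3 the parent line was used to choose the genes.

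Against tt4, the regulators without CHS showed no passing difference in any of the 3 genes. EXO averaged 1952.5 in MYB12OX/tt4 and 1883 in pap1-D/tt4, against 1559 in tt4, and all 3 arrays of each cross lay above those of tt4. The differences were 0.31 ± 0.20 for MYB12OX/tt4 (95% interval -0.11 to 0.74, limma adjusted p = 0.611) and 0.26 ± 0.20 for pap1-D/tt4 (-0.16 to 0.69, adjusted p = 0.97). AT1G50040 also read higher on all 3 arrays of each cross than on any array of tt4, at 0.17 ± 0.27 (-0.40 to 0.74, adjusted p = 0.883) and 0.29 ± 0.27 (-0.28 to 0.86, adjusted p = 0.97). The share of all probe sets separated in this way was not counted, so the separation of both genes is a description only. The SE of these differences rests on the spread of all arrays of the series, not only of the genotypes compared. For AT3G19680 the arrays overlapped and the differences were -0.092 ± 0.23 (-0.57 to 0.38, adjusted p = 0.927) and -0.12 ± 0.23 (-0.59 to 0.36, adjusted p = 0.998). Few probe sets passed at all, 0.187% of those tested for MYB12OX/tt4 and 0.147% for pap1-D/tt4. The replicate number as a block raised the count for MYB12OX/tt4 to 97 from 28. If the tt4 crosses are themselves counted among the regulator lines of the choosing rule, these comparisons are not independent of it on the side of the crosses.

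The 2 regulators were also set against each other. EXO averaged 3558 in pap1-D and 2748 in MYB12OX, a difference of 0.38 ± 0.20 (95% interval -0.046 to 0.80, limma adjusted p = 0.558). AT1G50040 was at 0.10 ± 0.27 (-0.46 to 0.67, adjusted p = 0.934) and AT3G19680 at -0.12 ± 0.23 (-0.59 to 0.36, adjusted p = 0.905). The values were 0.22 (adjusted p = 0.912), 0.093 (adjusted p = 0.978) and -0.089 (adjusted p = 0.977) without the 4 arrays high in fast stress genes. Without CHS, in pap1-D/tt4 against MYB12OX/tt4, the differences were -0.050 ± 0.20 for EXO (-0.47 to 0.37, adjusted p = 0.986), 0.12 ± 0.27 for AT1G50040 (-0.44 to 0.69, adjusted p = 0.983) and -0.026 ± 0.23 for AT3G19680 (-0.50 to 0.45, adjusted p = 0.991). The arrays overlapped in all 6 of these comparisons. Of all probe sets 0.201% passed in each of the contrasts, and with the replicate number as a block 80 in place of 30 passed between pap1-D and MYB12OX.

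Carrying both regulators was not accompanied by a passing change of any of the 3 genes relative to 1 regulator. The mean of WOX1-1 and WOX1-2 differed from MYB12OX by 0.42 ± 0.18 for EXO (95% interval 0.058 to 0.79, limma adjusted p = 0.136), 0.21 ± 0.24 for AT1G50040 (-0.28 to 0.70, adjusted p = 0.643) and -0.15 ± 0.20 for AT3G19680 (-0.57 to 0.26, adjusted p = 0.695). From pap1-D it differed by 0.047 ± 0.18 for EXO (-0.32 to 0.41, adjusted p = 0.96), 0.11 ± 0.24 for AT1G50040 (-0.38 to 0.60, adjusted p = 0.923) and -0.040 ± 0.20 for AT3G19680 (-0.45 to 0.37, adjusted p = 0.968). Of all probe sets 10.5% passed against MYB12OX and 1.07% against pap1-D. With the replicate number as a block, 324 in place of 160 passed against pap1-D. Without the 4 arrays high in fast stress genes, EXO was at 0.11 against MYB12OX (adjusted p = 0.82) and at -0.11 against pap1-D (adjusted p = 0.932), and AT1G50040 at -0.013 (adjusted p = 0.987) and -0.11 (adjusted p = 0.957). AT3G19680 was then at -0.40 against MYB12OX (adjusted p = 0.358) and at -0.31 against pap1-D (adjusted p = 0.755).

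The 2 double lines were also set against each other. EXO averaged 2876 in WOX1-2 and 4579 in WOX1-1, and all 3 arrays of WOX1-2 lay below all 3 of WOX1-1. The difference was -0.67 ± 0.20 (95% interval -1.09 to -0.25), with an unadjusted p of 0.00335 and a limma adjusted p of 0.344, so it did not pass over all probe sets. The arrays of WOX1-2 were also below those of WOX1-1 without overlap for AT1G50040, at -0.39 ± 0.27 (-0.96 to 0.17, adjusted p = 0.759), and for AT3G19680, at -0.33 ± 0.23 (-0.81 to 0.14, adjusted p = 0.758). How many of all probe sets were separated between these lines was not counted, so the lack of overlap is no result about the 3 genes. Without the 4 arrays high in fast stress genes the differences were -0.77 for EXO (adjusted p = 0.309), -0.57 for AT1G50040 (adjusted p = 0.535) and -0.27 for AT3G19680 (adjusted p = 0.833). No probe set passed between these lines in limma, 1242 had an unadjusted p under 0.05, and 12 passed with the replicate number as a block.

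Over the signals of all 24 arrays, EXO and AT1G50040 had a Pearson r of 0.89, EXO and AT3G19680 one of 0.82 and the DUF1005 genes one of 0.70, on the log2 scale. Without the 2 arrays farthest from the median of the first gene, r was 0.85, 0.76 and 0.60. The differences from Col-0 that chose the genes enter these values. Deviations of the arrays from their genotype means leave those differences out. Over these deviations, EXO and AT1G50040 had a Pearson r of 0.82 (Spearman rho 0.72), EXO and AT3G19680 an r of 0.54 (rho 0.45), and the DUF1005 genes an r of 0.46 (rho 0.27). Without the 3 arrays of Col-0, r was 0.69, 0.39 and 0.20. On the 20 arrays left without the 4 high in fast stress genes, r over the signals was 0.93, 0.81 and 0.71. Over the deviations of those 20 arrays it was 0.87 (rho 0.83), 0.42 (rho 0.21) and 0.37 (rho -0.011). The r between the DUF1005 genes was lower than that between AT1G50040 and EXO, and the difference was not tested. All 3 genes deviated to the same side on 9 of 24 arrays, above the mean on 5 and below it on 4. Col-0 replicate 1 deviated by -0.41 for EXO, -0.70 for AT1G50040 and -0.57 for AT3G19680, and Col-0 replicate 3 by 0.57, 0.80 and 0.37. These correlations are descriptions over arrays that share their scaling and possibly their handling.

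**Figure D4:**
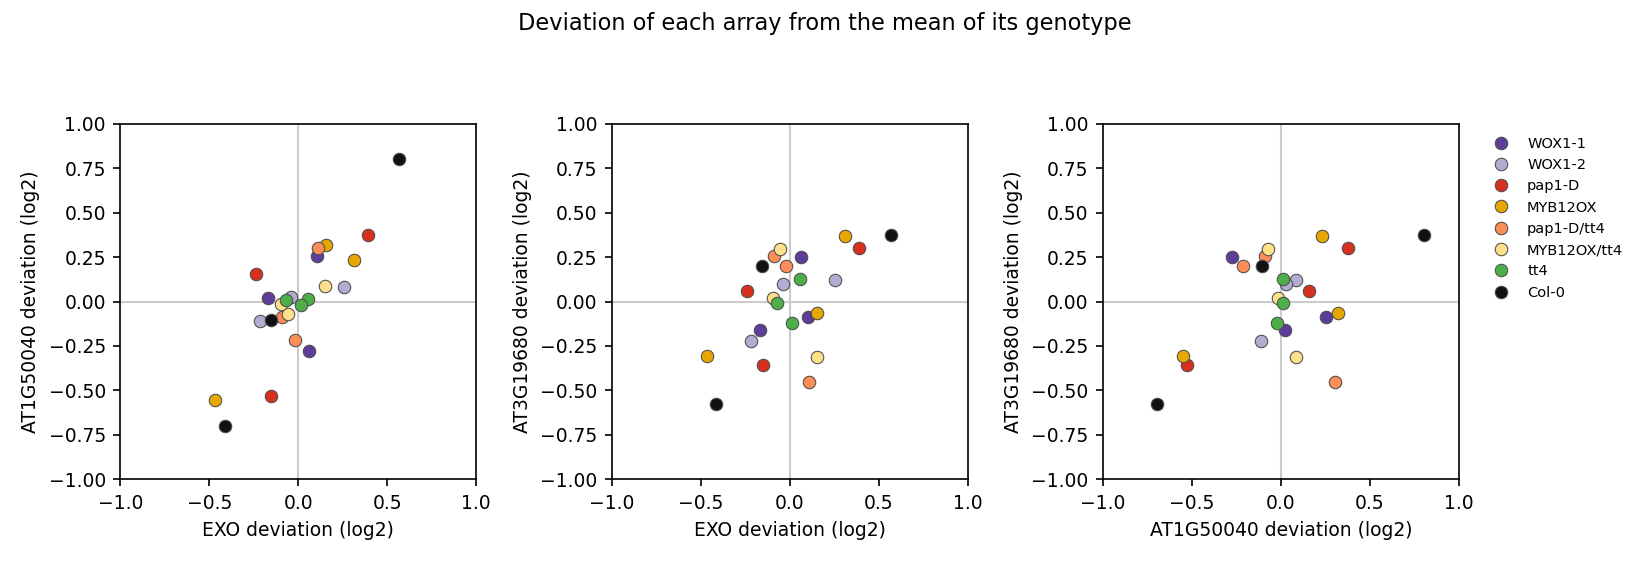
Deviation of each array from the mean of its genotype, in units of log2(signal + 42.6), for the 3 pairs of genes; each point is 1 of 24 arrays, coloured by genotype. EXO and AT1G50040 (r = 0.82) lie closest to a line, and the black points of Col-0 span -0.70 to 0.80 for AT1G50040, the widest of the 8 genotypes for that gene.

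The deviations were set beside the fast stress genes, since the 4 arrays high in those genes were all numbered 1. Within genotypes the log2 of the summed stress signal had an r of -0.56 with AT1G50040, -0.16 with EXO and -0.15 with AT3G19680 over 24 arrays. These r were not computed without the 4 arrays. The 4 stress genes had median differences of -1.16 in pap1-D/tt4 against pap1-D and -0.62 in MYB12OX/tt4 against MYB12OX. Without the 4 arrays their differences lay between -0.22 (CML38) and 0.033 (STZ) in the pap1-D comparison. In the MYB12OX comparison they lay between -0.46 (AT5G52050) and 0.33 (AT2G27080). On 3 of the 4 arrays, those of MYB12OX, pap1-D and WOX1-1, AT1G50040 was the lowest of its genotype. With all arrays none of the 4 stress genes passed in any of the 10 contrasts, and without those 4 arrays STZ passed in MYB12OX/tt4 against tt4 (-0.73, adjusted p = 0.0445). The difference in that contrast uses none of the 4 arrays and was the same with all arrays, while its SE rests on every array in the fit. Only the SE fell, from 0.57 to 0.15. The arrays were set apart by the signals of STZ and the other stress genes, so this call is not independent of leaving them out. The part of these arrays' condition in the EXO and DUF1005 values was not tested beyond the fits without them.

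Other genes of the same families and of the brassinosteroid pathway could be examined only in small part. EXO was the only 1 of 8 EXO family genes with a usable probe set name, and of 15 genes for brassinosteroid synthesis and signalling there was none. Of 5 DUF1005 genes, AT1G10020 was tested besides the members. It averaged 906 ± 165 in WOX1-1, 815 ± 25.8 in WOX1-2, 796 ± 198 in pap1-D, 684 ± 146 in MYB12OX, 746 ± 56.8 in pap1-D/tt4, 735 ± 25.2 in MYB12OX/tt4, 671 ± 41.7 in tt4 and 449.9 ± 36.8 in Col-0 (SD, n = 3 each). All 21 arrays outside Col-0 were above the highest of Col-0, 489, and the lowest of them was 518 in MYB12OX. How many of all probe sets share this was not counted. AT1G10020 was at 0.12 ± 0.15 in MYB12OX/tt4 against MYB12OX (limma adjusted p = 0.638) and at -0.064 ± 0.15 in pap1-D/tt4 against pap1-D (adjusted p = 0.813). It was at -0.058 (adjusted p = 0.749) and -0.25 (adjusted p = 0.0788) without the 4 arrays high in fast stress genes. Whether its response differs from that of AT3G19680 was not tested.

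EXPA8, an alpha-expansin that loosens cell walls, was the 1 of 13 brassinosteroid-induced genes on the list that could be tested, and its signal was lower in the regulator lines than in Col-0. It averaged 1774 ± 223 in WOX1-1, 1304 ± 43.0 in WOX1-2, 2736 ± 410 in pap1-D and 3466 ± 250 in MYB12OX, against 5455 ± 559 in Col-0 (SD, n = 3 each). In the genotypes with tt4 it was lower still, at 979 ± 130.3 in pap1-D/tt4, 1101 ± 123 in MYB12OX/tt4 and 984 ± 131 in tt4 (SD, n = 3 each), whereas all 3 genotypes had EXO means above that of Col-0. It fell by 1.44 ± 0.12 in pap1-D/tt4 against pap1-D (limma adjusted p = 6.28e-08) and by 1.62 ± 0.12 in MYB12OX/tt4 against MYB12OX (adjusted p = 8.58e-09). The mean of WOX1-1 and WOX1-2 was lower by -1.17 ± 0.10 than MYB12OX (limma adjusted p = 1.19e-07) and by -0.82 ± 0.10 than pap1-D (adjusted p = 0.00016). These 4 calls also passed without the 4 arrays high in fast stress genes. In the order of the listing the EXPA8 means ran 5455, 3466, 2736, 1774, 1304, 1101, 979 and 984. Listing order and genotype move together, and the EXPA8 calls were not examined with the place in the listing as a covariate. AT1G62510, the 1 tested gene of 10 for carbon and sugar starvation, did not pass in any of the 10 contrasts and had means between 2959 in WOX1-2 and 2129 in Col-0.

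By likeness of signal over the 24 arrays, the genes nearest to EXO among 8125 were AT4G02540 (Pearson r = 0.91), the bZIP factor gene BZIP61 (0.91), AT2G44500 (0.90), AT5G25240 (0.90) and AT2G47440 (0.89), with AT1G50040 at place 6 (0.89). Nearest to AT1G50040 were AT1G11380 (0.94), BZIP61 (0.92), AT1G61100 (0.90), AT2G42030 (0.90) and the DUF1005 gene AT1G10020 (0.89), with EXO at place 6. Nearest to AT3G19680 were RALFL33, which encodes a small signalling peptide of the RALF family (0.87), the bZIP factor gene BZIP53 (0.83), EXO (0.82), AT2G47440 (0.81) and AT4G15810 (0.80). All of these correlations include the differences between genotypes that the members were chosen for.

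By likeness of the deviations within genotypes, EXO was nearest to BZIP53 (r = 0.86), AT1G50040 (0.82), the expansin-like gene EXLA1 (0.74), AT1G72390 (0.73) and AT3G07720 (0.73). For AT1G50040 the order was AT1G11380 (0.88), AT5G25240 (0.87), BZIP61 (0.87), AT1G61100 (0.87) and AT2G30930 (0.85), with EXO at place 12. For AT3G19680 it was RALFL33 (0.78), AT3G56750 (0.74), AT4G02340 (0.73), AT3G58630 (0.73) and AT1G52510 (0.72), with EXO at place 91 and AT1G50040 at place 210. The nearest genes of AT1G50040 were 3 of 5 the same by both measures, those of AT3G19680 1 of 5 and those of EXO 0 of 5. Without the 4 arrays high in fast stress genes, 4 of the 5 genes nearest by signal stayed among the nearest 5 for each member. By deviations, 2 of 5 did so for EXO, 0 of 5 for AT1G50040 and 1 of 5 for AT3G19680, so most of the nearest genes by deviations changed. Other sets of 4 arrays were not left out, so whether this is particular to those arrays was not tested.

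Of the 20 other genes named for likeness, 11 passed in neither comparison of a tt4 cross with its parent line. In pap1-D/tt4 against pap1-D, 7 were lower and 0 higher, and in MYB12OX/tt4 against MYB12OX 2 were lower and 2 higher. Of all probe sets tested, 18.9% passed and 8.84% were lower in the pap1-D comparison. In the MYB12OX comparison 17.4% passed and 8.23% were lower, so the 2 lower and 2 higher genes there are near the share of all probe sets. The calls of these genes were not examined with the listing covariate. RALFL33 and BZIP53 were the 2 that were lower in both, as AT3G19680 and 5.54% of all probe sets were. RALFL33 averaged 1798 ± 78.2 in pap1-D/tt4 and 2653 ± 199 in pap1-D (SD, n = 3 each), a difference of -0.55 ± 0.08 (limma adjusted p = 3.55e-05), and it fell by 0.26 ± 0.08 in MYB12OX/tt4 against MYB12OX (adjusted p = 0.0232). BZIP53 fell by 0.36 ± 0.10 in pap1-D/tt4 against pap1-D (adjusted p = 0.0196) and by 0.33 ± 0.10 in MYB12OX/tt4 against MYB12OX (adjusted p = 0.0314). AT2G44500, AT4G02540, AT4G15810, AT2G47440 and AT1G52510 were lower in pap1-D/tt4 than in pap1-D, at -0.71, -0.39, -0.59, -0.68 and -0.27 (adjusted p = 1.63e-05, 0.035, 0.0229, 0.00467 and 0.0135). In MYB12OX/tt4 against MYB12OX these 5 were at -0.18, -0.16, -0.33, -0.36 and -0.19 and did not pass (adjusted p = 0.216, 0.43, 0.225, 0.135 and 0.0879). EXLA1 and AT3G56750, near by deviations, were higher in MYB12OX/tt4 than in MYB12OX, by 0.52 ± 0.16 (adjusted p = 0.0267) and 0.32 ± 0.10 (adjusted p = 0.0262).

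Several of these calls changed without the 4 arrays high in fast stress genes. RALFL33 and BZIP53 passed in both comparisons, and AT2G44500 and AT4G02540 passed in pap1-D/tt4 against pap1-D. AT4G15810, at -0.57 (adjusted p = 0.0643), and AT1G52510, at -0.26 (adjusted p = 0.0552), no longer passed there, with differences of nearly the same size. In MYB12OX/tt4 against MYB12OX, EXLA1, at 0.41 (adjusted p = 0.113), and AT3G56750, at 0.29 (adjusted p = 0.0691), no longer passed. AT2G47440 passed in both comparisons, at -0.90 (adjusted p = 2.44e-06) in pap1-D/tt4 against pap1-D and at -0.60 (adjusted p = 0.000134) in MYB12OX/tt4 against MYB12OX. AT5G25240 also passed in both, at -0.71 (adjusted p = 0.00265) and -0.44 (adjusted p = 0.0483). BZIP61, at -0.47 (adjusted p = 0.00933), and AT2G42030, at -0.32 (adjusted p = 0.0173), passed in pap1-D/tt4 against pap1-D. These genes were picked for their likeness to the members on the same arrays, so their calls are not independent of those of the members.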

How the data were processed

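Affymetrix ATH1 arrays of 24 samples were analysed from the deposited table of signal intensities, which the authors made with MAS5 per the submitters' processing notes, with no version stated. The mean after trimming 2% at each end was 500.0 on every array. Arrays were grouped by their titles. Before log2, 42.6 (the median over all signals, 170, divided by 4) was added, and probe sets above 85.2 on at least 3 arrays were tested, 14935 of 22746 after leaving out 64 controls. A model with 8 genotype means was fitted (limma 3.58.1, R 4.3.3, moderated with a trend), two-sided, and 10 contrasts without Col-0 were tested for the 3 genes, 30 tests in all. The fit was tested on simulated data. The members, lists and alternatives were chosen with earlier results of these data known. Genes were named by 3 parts of a rule: the members, tested list genes, and the 5 genes nearest to each member by Pearson r over arrays and over deviations from genotype means. Names came from the platform annotation (13513 probe sets with 1 gene, 13436 matched to RefSeq TAIR10.1 by Entrez identifier). The build behind the array is not given, so no coordinates or sequences are printed. MYB12, PAP1 and CHS probe sets are not named there, so the regulators' own signals are not analysed here. Arrays with the same replicate number were compared for shared deviations: every same-number correlation was over 0.1 in 5 of the 10 contrasts, among them pap1-D/tt4 with pap1-D, but no label says what the number marks. Alternatives changed the offset, filter, scaling, arrays, replicate block, array weights and listing covariate. With 3 arrays per genotype, precision is limited by their number.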

Additional observations from a re-analysis of the deposited data

How the results depend on the processing

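The 3 calls kept their direction and passed with an offset of 1, an offset equal to the overall median, no filter, quantile scaling, only the genotypes compared, the replicate number as a block and array weights. The replicate block changed no call of the 3 genes, with EXO at -0.88 in pap1-D/tt4 minus pap1-D. With the offset equal to the overall median, the AT1G50040 differences from Col-0 were 1.53 in WOX1-1, 1.19 in WOX1-2, 1.27 in pap1-D, 1.18 in MYB12OX, 1.02 in pap1-D/tt4 and 0.92 in MYB12OX/tt4. With array weights, 2 differences that had not passed changed sign, to -0.015 for EXO in WOX (the mean of both lines) minus pap1-D and -0.073 for AT1G50040 in the difference of differences. The listing covariate for the differences from Col-0, and every value without the 4 arrays high in fast stress genes, were added after seeing the data. With the covariate, differences from Col-0 moved or changed sign as follows. WOX1-1 was at 1.20 for EXO, -0.11 for AT1G50040 and 0.63 for AT3G19680. WOX1-2 was at 0.25 for EXO, -1.22 for AT1G50040 and 0.14 for AT3G19680. pap1-D was at 1.09 for EXO and 0.29 for AT1G50040. MYB12OX was at 0.90 for AT1G50040. pap1-D/tt4 was at -0.90 for EXO, -2.84 for AT1G50040 and -0.73 for AT3G19680. MYB12OX/tt4 was at -0.57 for EXO, -2.25 for AT1G50040 and -0.55 for AT3G19680. tt4 was at -1.44 for EXO, -3.85 for AT1G50040 and -0.76 for AT3G19680. The SE of these differences grows with the distance in the listing, so those of the genotypes with tt4 are the least certain. In signal, every AT1G50040 array with tt4 (432 or more) lay above those of Col-0 (339 or less). Among the contrasts without Col-0, the same fit gave these values where a call was lost or the sign changed, and no changed sign belonged to a passing value. MYB12OX/tt4 minus MYB12OX came to -1.47 for AT3G19680. pap1-D/tt4 minus pap1-D came to -1.99 for EXO and -1.38 for AT3G19680. MYB12OX/tt4 minus tt4 came to 0.21 for AT3G19680. pap1-D/tt4 minus tt4 came to 0.032 for AT3G19680. pap1-D minus MYB12OX came to -0.61 for AT1G50040. WOX (the mean of both lines) minus MYB12OX came to -0.27 for EXO and -1.57 for AT1G50040. WOX (the mean of both lines) minus pap1-D came to -0.37 for EXO and -0.96 for AT1G50040. pap1-D/tt4 minus MYB12OX/tt4 came to -0.59 for AT1G50040. Without the 4 arrays, MYB12OX/tt4 minus MYB12OX came to -0.68 for EXO. WOX (the mean of both lines) minus MYB12OX came to -0.013 for AT1G50040. WOX (the mean of both lines) minus pap1-D came to -0.11 for EXO and -0.11 for AT1G50040.

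With each array left out in turn, the differences from Col-0 had these ranges. WOX1-1 gave 1.82 to 2.31 for EXO, 1.68 to 2.43 for AT1G50040 and 0.79 to 1.27 for AT3G19680. WOX1-2 gave 1.15 to 1.64 for EXO, 1.28 to 2.03 for AT1G50040 and 0.46 to 0.93 for AT3G19680. pap1-D gave 1.44 to 1.93 for EXO, 1.37 to 2.12 for AT1G50040 and 0.67 to 1.14 for AT3G19680. MYB12OX gave 1.06 to 1.55 for EXO, 1.27 to 2.02 for AT1G50040 and 0.78 to 1.25 for AT3G19680. pap1-D/tt4 gave 0.56 to 1.05 for EXO, 1.08 to 1.83 for AT1G50040 and -0.11 to 0.40 for AT3G19680. MYB12OX/tt4 gave 0.61 to 1.10 for EXO, 0.96 to 1.71 for AT1G50040 and -0.088 to 0.39 for AT3G19680. tt4 gave 0.30 to 0.79 for EXO, 0.79 to 1.54 for AT1G50040 and 0.0047 to 0.48 for AT3G19680. The contrasts without Col-0 ranged likewise. MYB12OX/tt4 minus MYB12OX ranged over -0.68 to -0.29 for EXO, -0.58 to -0.15 for AT1G50040 and -1.02 to -0.68 for AT3G19680. pap1-D/tt4 minus pap1-D ranged over -0.998 to -0.68 for EXO, -0.56 to -0.10 for AT1G50040 and -0.96 to -0.55 for AT3G19680. MYB12OX/tt4 minus tt4 ranged over 0.24 to 0.36 for EXO, 0.13 to 0.21 for AT1G50040 and -0.24 to 0.064 for AT3G19680. pap1-D/tt4 minus tt4 ranged over 0.21 to 0.31 for EXO, 0.14 to 0.40 for AT1G50040 and -0.25 to 0.11 for AT3G19680. pap1-D minus MYB12OX ranged over 0.14 to 0.53 for EXO, -0.17 to 0.37 for AT1G50040 and -0.27 to 0.070 for AT3G19680. WOX (the mean of both lines) minus MYB12OX ranged over 0.19 to 0.58 for EXO, -0.061 to 0.37 for AT1G50040 and -0.31 to 0.030 for AT3G19680. WOX (the mean of both lines) minus pap1-D ranged over -0.073 to 0.24 for EXO, -0.15 to 0.30 for AT1G50040 and -0.22 to 0.11 for AT3G19680. WOX1-2 minus WOX1-1 ranged over -0.80 to -0.56 for EXO, -0.53 to -0.27 for AT1G50040 and -0.41 to -0.21 for AT3G19680. pap1-D/tt4 minus MYB12OX/tt4 ranged over -0.11 to 0.026 for EXO, -0.029 to 0.23 for AT1G50040 and -0.18 to 0.20 for AT3G19680. The difference of differences ranged over -0.58 to -0.19 for EXO, -0.25 to 0.29 for AT1G50040 and -0.10 to 0.32 for AT3G19680. The adjusted p of EXO in pap1-D/tt4 minus pap1-D stayed between 0.00461 and 0.0315, and that of AT3G19680 between 0.0125 and 0.129, with 0.00833 to 0.0699 in MYB12OX/tt4 minus MYB12OX.

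The count of passing probe sets had these ranges over all alternatives, those leaving out arrays included. For MYB12OX/tt4 minus MYB12OX it was 2603 in the reported fit, with 45 as the lowest and 3868 as the highest. For pap1-D/tt4 minus pap1-D it was 2824 in the reported fit, with 136 as the lowest and 3205 as the highest. For MYB12OX/tt4 minus tt4 it was 28 in the reported fit, with 11 as the lowest and 144 as the highest. For pap1-D/tt4 minus tt4 it was 22 in the reported fit, with 11 as the lowest and 80 as the highest. For pap1-D minus MYB12OX it was 30 in the reported fit, with 20 as the lowest and 80 as the highest. For WOX (the mean of both lines) minus MYB12OX it was 1564 in the reported fit, with 98 as the lowest and 2034 as the highest. For WOX (the mean of both lines) minus pap1-D it was 160 in the reported fit, with 9 as the lowest and 324 as the highest. For WOX1-2 minus WOX1-1 it was 0 in the reported fit, with 0 as the lowest and 12 as the highest. For pap1-D/tt4 minus MYB12OX/tt4 it was 30 in the reported fit, with 16 as the lowest and 35 as the highest. For the difference of differences it was 1 in the reported fit, with 1 as the lowest and 2 as the highest. The cause of these changes was not tested. With 3 arrays per genotype, the number of arrays limits the precision.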
